A study of Mus musculus with 16 samples.

Results

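The genes described here encode 10 enzymes that make NAD or convert it to NADP: Nmrk1, Nmrk2, Nampt, Nmnat1, Nmnat2, Nmnat3, Naprt, Nadk, Nadsyn1 and Qprt. They were chosen by name, with Nmrk2 put forward because its level differed between arrays of this series. Probes were matched to gene symbols by RefSeq accession, and each gene was represented by its matched probe with the highest mean signal. Of the 10 genes, 9 had a matched probe and 8 entered the test, out of 17529 genes tested in all. Nmnat1 had no matched probe and therefore has no value. Nmnat2 was well above background on 1 of 16 arrays and was not tested.

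RNA came from HL-1 cells, an immortalised mouse atrial cardiomyocyte line, treated for 6 h with 100 nM dexamethasone (Dex, a synthetic glucocorticoid), with 10 nM estradiol (E2, an estrogen), with both (Dex+E2), or with PBS vehicle. Each of the 4 labels had 4 one-colour Agilent arrays, and the design names 4 independent experiments. All arrays are of 1 cell line, so p-values measure the spread between its cultures. The comparisons ask how the glucocorticoid and the estrogen act alone and whether one alters the response to the other.

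NAD is made along several routes that meet at nicotinate and nicotinamide mononucleotides. Nampt, the rate-limiting enzyme of salvage, converts nicotinamide to its mononucleotide, while the kinases Nmrk1 and Nmrk2 make the same product from nicotinamide riboside. Nmrk2 is the form found mainly in skeletal and cardiac muscle, where its transcript is known to increase when energy supply is stressed, and it was first described as a protein that binds muscle integrin.

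The upstream sequences of Nmrk2 and Nampt are shown because these were the only 2 of the 8 tested genes whose levels separated the arrays described below. Both were read from the RefSeq promoter table of GRCm38.p6, 5′ to 3′ on the strand of the gene. For Nmrk2 only 30 bases around a match are given, since the start that the promoter table uses for Nmrk2 is an inner one, and most of its window lies inside the longer span annotated for the gene. Capitals mark the letters TATAAA.
Nmrk2, chr10:81202066-81202095, minus strand: gctgcccaaaccTATAAAtgccccacagct
Nampt, chr12:32820085-32820334, plus strand: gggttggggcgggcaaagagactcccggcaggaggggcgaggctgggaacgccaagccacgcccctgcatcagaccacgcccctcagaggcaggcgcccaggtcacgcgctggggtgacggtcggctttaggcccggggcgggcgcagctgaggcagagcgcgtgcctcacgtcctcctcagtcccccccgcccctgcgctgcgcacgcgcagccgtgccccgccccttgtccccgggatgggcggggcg
The 250 bases before that inner start of Nmrk2 had a GC content of 58.8% with 5 CpG dinucleotides, against 75.6% and 27 for Nampt and medians of 52.4% and 6 over 32817 promoter windows of the same length. Both strands were searched for 4 motifs: the glucocorticoid response element (AGAACA, 3 free bases, then TGTNCT), its half-site AGAACA alone, the E-box CACGTG and TATAAA. A full element always holds the half-site, so these matches overlap. TATAAA lay 46 bases before the inner Nmrk2 start, within the annotated gene span, and was present in 12.4% of all windows. The Nampt window held none of the 4 motifs, of which the full element was in 0.0366%, AGAACA in 16.1% and CACGTG in 6.02% of all windows. The absence of these letters from a window of 250 bases says nothing about binding elsewhere.

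Levels are log2 processed signals with the 75th percentile of the same array taken off; that percentile ran from 402 to 557 intensity units. Well above background were 58.6% to 65.6% of an array's probes, and 0 were saturated. Per1, a clock gene that glucocorticoids induce directly, went against the label on 4 arrays. It stood at 1.91, 1.81, -1.15 and 1.99 on Dex arrays 1 to 4, and at 1.86, 1.82, -1.11 and 1.95 on Dex+E2 arrays 1 to 4. It stood at -0.86, -0.999, -1.29 and 1.95 on E2 arrays 1 to 4, and at -0.96, -0.75, -1.11 and 1.75 on Vehicle arrays 1 to 4. The arrays labelled Dex 3 and Dex+E2 3 were thus among the 8 arrays with low Per1, and those labelled E2 4 and Vehicle 4 among the 8 with high Per1. The labels are kept throughout, and the 2 sets of 8 arrays, defined by a measured value, are not treatment groups and are described without a test.

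Nmrk2 (chr10:81198170-81202265, GRCm38.p6) varied more than any other tested member. Its level was 0.11, 0.10, 0.88 and -0.71 on Dex arrays 1 to 4, and -0.12, -0.03, 0.86 and -0.83 on Dex+E2 arrays 1 to 4. On E2 arrays 1 to 4 it was 1.31, 1.26, 0.70 and -0.41, and on Vehicle arrays 1 to 4 it was 1.64, 1.85, 0.62 and -0.59. The array that stood against its label in Per1 had the highest Nmrk2 of the 4 in Dex and Dex+E2 and the lowest in E2 and Vehicle. In Dex and Dex+E2 the fourth array also lay apart, below the first pair, and the 4 labels overlapped. The means were 0.10 ± 0.65 in Dex, 0.72 ± 0.80 in E2, -0.03 ± 0.69 in Dex+E2 and 0.88 ± 1.12 in Vehicle (SD, n = 4 each). In order from highest to lowest they ran Vehicle, E2, Dex, Dex+E2, and no neighbours in that order differed beyond their spread.

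Nampt (chr12:32820335-32853369) was at 3.63, 3.72, 3.16 and 3.62 on Dex arrays 1 to 4, and at 3.62, 3.61, 3.05 and 3.51 on Dex+E2 arrays 1 to 4. It was at 3.01, 3.01, 3.01 and 3.54 on E2 arrays 1 to 4, and at 3.06, 3.21, 2.92 and 3.61 on Vehicle arrays 1 to 4. The direction was the opposite of that of Nmrk2: arrays low in Nmrk2 were high in Nampt, including the fourth E2 and Vehicle arrays. The means were 3.53 ± 0.25 in Dex, 3.14 ± 0.27 in E2, 3.45 ± 0.27 in Dex+E2 and 3.20 ± 0.30 in Vehicle (SD, n = 4 each), and the labels overlapped.

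**Figure D1:**
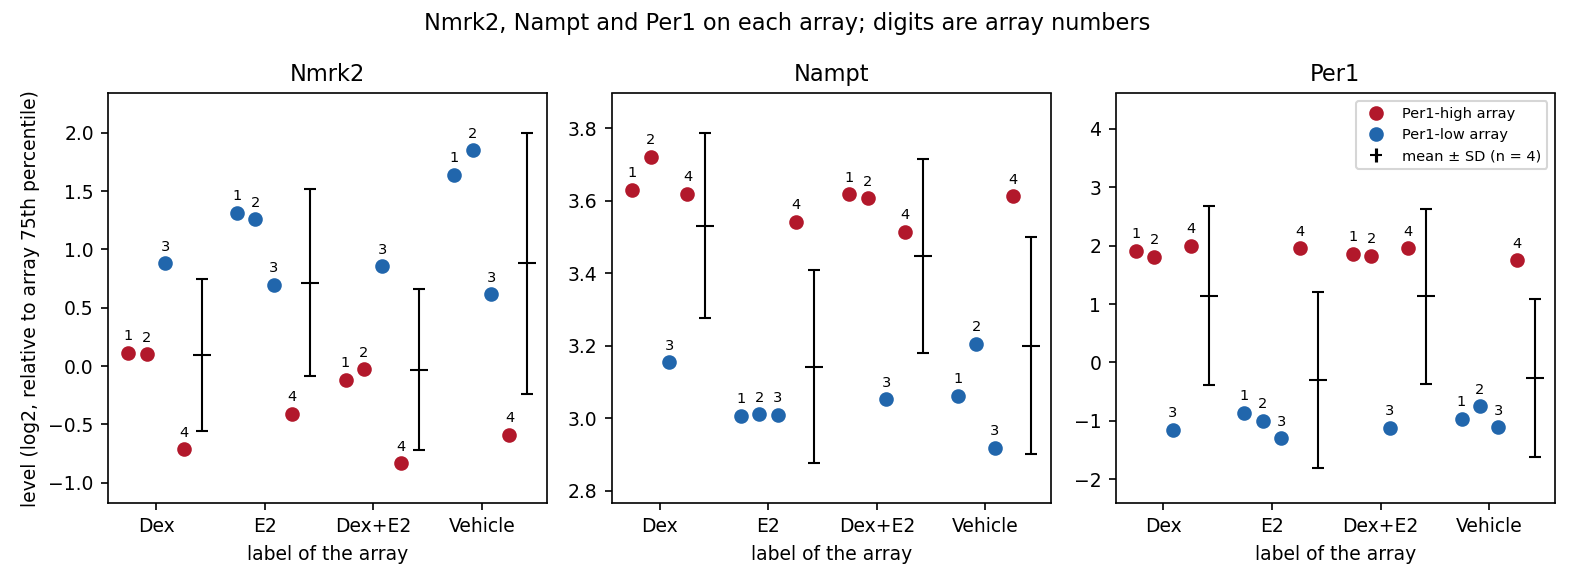
Nmrk2, Nampt and Per1 levels (log2, with the array's 75th percentile taken off) on each of the 16 arrays by label, with digits for array numbers, colour for high or low Per1, and a bar for mean ± SD of 4 arrays. The arrays with high Per1 are low in Nmrk2 and high in Nampt under all 4 labels, so that Nmrk2 on Vehicle 4 is -0.59 while Vehicle 1 and 2 are at 1.64 and 1.85.

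No member passed the test in any of 6 label comparisons (limma, Benjamini-Hochberg adjusted p under 0.05 over 17529 genes), and neither did any other gene: percent called was 0 in each. An unadjusted p under 0.05 was reached by 561 to 1912 genes per comparison, and by 981 between Dex+E2 and Vehicle. A share of 0.05 of the 17529 genes is expected there by chance alone, so nothing is read from these counts. In this fit, without a block, the 1 member there in any comparison was Nmrk1, between Dex+E2 and Vehicle (-0.22 ± 0.10, limma adjusted p = 0.712). Its difference was -0.13 without Vehicle 2 and -0.10 with normexp background correction and quantile normalization. Nmrk2 differed by -0.78 ± 0.53 between Dex and Vehicle (log2 difference ± SE, limma adjusted p = 0.580). It differed by -0.91 ± 0.53 between Dex+E2 and Vehicle and by -0.16 ± 0.53 between E2 and Vehicle (limma adjusted p = 0.712 and 1.000). The interaction of Dex and E2 for Nmrk2 was 0.04 ± 0.75 (limma adjusted p = 0.999), an error too wide to exclude a change of the size seen with Dex. Nampt differed by 0.33 ± 0.18 between Dex and Vehicle and by 0.25 ± 0.18 between Dex+E2 and Vehicle (limma adjusted p = 0.503 and 0.719), and its interaction was -0.03 ± 0.25. Over the 8 members the median difference between Dex and Vehicle was -0.08, against -0.03 over all genes. In Dex+E2 minus Vehicle the members' median was -0.02, as was that of all genes, and in E2 minus Vehicle it was -0.04, against -0.02.

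The label differences of Nmrk2 depended on single arrays, and not only on those whose Per1 went against the label. Without Vehicle 4 alone, which went against it, the Dex to Vehicle difference of Nmrk2 was -1.27. Without Vehicle 2, which did not, it was -0.46. For Dex+E2 against Vehicle the same omissions gave -1.40 and -0.59. The 4 arrays whose Per1 went against the label were then set aside, by that measured glucocorticoid target and after seeing the data. Under every label array 3 was Per1-low and array 4 Per1-high, so on these arrays Per1 followed the number and not the label. The 12 arrays kept still held Dex 4, Dex+E2 4, Vehicle 3 and E2 3, whose labels Per1 therefore cannot check. Their differences thus in part set arrays numbered 4 against arrays numbered 3. Over the other 12 arrays Nmrk2 differed by -1.54 ± 0.34 between Dex and Vehicle, by -1.70 ± 0.34 between Dex+E2 and Vehicle and by -1.42 ± 0.34 between Dex+E2 and E2. The Nampt differences over the same 12 arrays were 0.59 ± 0.08, 0.52 ± 0.08 and 0.57 ± 0.08. Between E2 and Vehicle they were -0.28 for Nmrk2 and -0.05 for Nampt, and between Dex+E2 and Dex -0.16 and -0.08. Because the arrays were set aside by a gene that follows glucocorticoid exposure, these values are descriptions and carry no p here. Over the 12 arrays the limma threshold was passed by 2 members between Dex and Vehicle (2.44% of all genes), by 2 between Dex+E2 and Vehicle (2.6%) and by 1, Nampt, between Dex+E2 and E2 (1.93%), and nothing is read from these counts. On slide 1, which held Dex 1, Dex 2, Vehicle 1 and Vehicle 2 and none of the arrays in doubt, Nmrk2 differed by -1.64 and Nampt by 0.54. Nmrk2 was put forward from that contrast, so it is not a separate test.

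Between the 8 Per1-high and the 8 Per1-low arrays, Nmrk2 did not overlap. Its lowest, median and highest levels were -0.83, -0.26 and 0.11 on Per1-high arrays, against 0.62, 1.07 and 1.85 on Per1-low arrays. The medians differed by -1.34, or 2.52-fold lower, with a gap of 0.50 between the sets. Of all 17529 genes, 2.05% lay lower on the Per1-high arrays without overlap and 2.01% higher, and Nmrk2 had the 18th lowest difference. Differences of at least 1 log2 unit downward were found for 52 genes (0.297%). Since Nmrk2 was put forward for a difference between some of these arrays, its rank is a description and nothing is read from it.

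Nampt, the salvage enzyme, separated the same sets in the other direction. Its lowest, median and highest levels were 3.51, 3.61 and 3.72 on Per1-high arrays, against 2.92, 3.03 and 3.21 on Per1-low arrays. The medians differed by 0.58, or 1.50-fold higher, which was the 292nd highest of all genes, and 2.07% of genes were higher by at least 0.5. Its other 2 probes differed by 0.45 and 0.54, and neither overlapped between the sets. So 2 of the 8 tested members did not overlap, 1 in each direction, where 4.06% of all genes did not. Nmrk2 had been put forward for a difference between some of these arrays, so the count is a description and nothing is read from it.

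The other 6 tested members, which lie on chromosomes 4 (Nadk), 7 (Nadsyn1, Qprt), 9 (Nmnat3), 15 (Naprt) and 19 (Nmrk1), overlapped between the sets. Nmrk1, the kinase found in most tissues, had medians of -1.54 on Per1-high and -1.44 on Per1-low arrays, a difference of -0.10. Naprt, which starts the nicotinic acid route, differed by -0.01, and Qprt, which feeds in quinolinate from tryptophan breakdown, by -0.11, which turned to 0.19 with quantile normalization and 0.02 with normexp added. Nmnat3, the mitochondrial enzyme that makes NAD from the mononucleotide, differed by 0.16. Nadsyn1, which amidates the acid form of NAD, differed by -0.04, and Nadk, which phosphorylates NAD to NADP, by 0.00. With quantile normalization Nadk differed by -0.05, and with normexp added Nadsyn1 differed by 0.0042, so neither has a settled direction. Over all genes the median of these differences was -0.01. By label, Nmrk1 averaged -1.62 ± 0.13 in Dex+E2 and -1.40 ± 0.18 in Vehicle, and Nmnat3 1.19 ± 0.24 in Dex+E2 and 0.95 ± 0.25 in Vehicle (SD, n = 4 each). Single arrays ran from -2.89 to -2.09 for Naprt, from 0.44 to 0.98 for Nadsyn1 and from 3.21 to 3.60 for Nadk. Qprt, at -6.35 to -4.59, passed background on 12 of 16 arrays, and the other 7 tested members on all 16. By label, Qprt passed on 4 of 4 E2, 3 of 4 Dex+E2, 3 of 4 Vehicle and 2 of 4 Dex arrays. It thus entered the test through the E2 label alone, and nothing is read from its E2 difference. On E2 arrays Qprt averaged -5.24 ± 0.44, against -5.76 ± 0.44 on Vehicle arrays (SD, n = 4 each), a difference of 0.52 ± 0.26 that did not pass the test (limma adjusted p = 0.977). It was 0.30 without E2 2, 0.32 without Vehicle 2 and 0.0372 with normexp and quantile normalization.

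**Figure D2:**
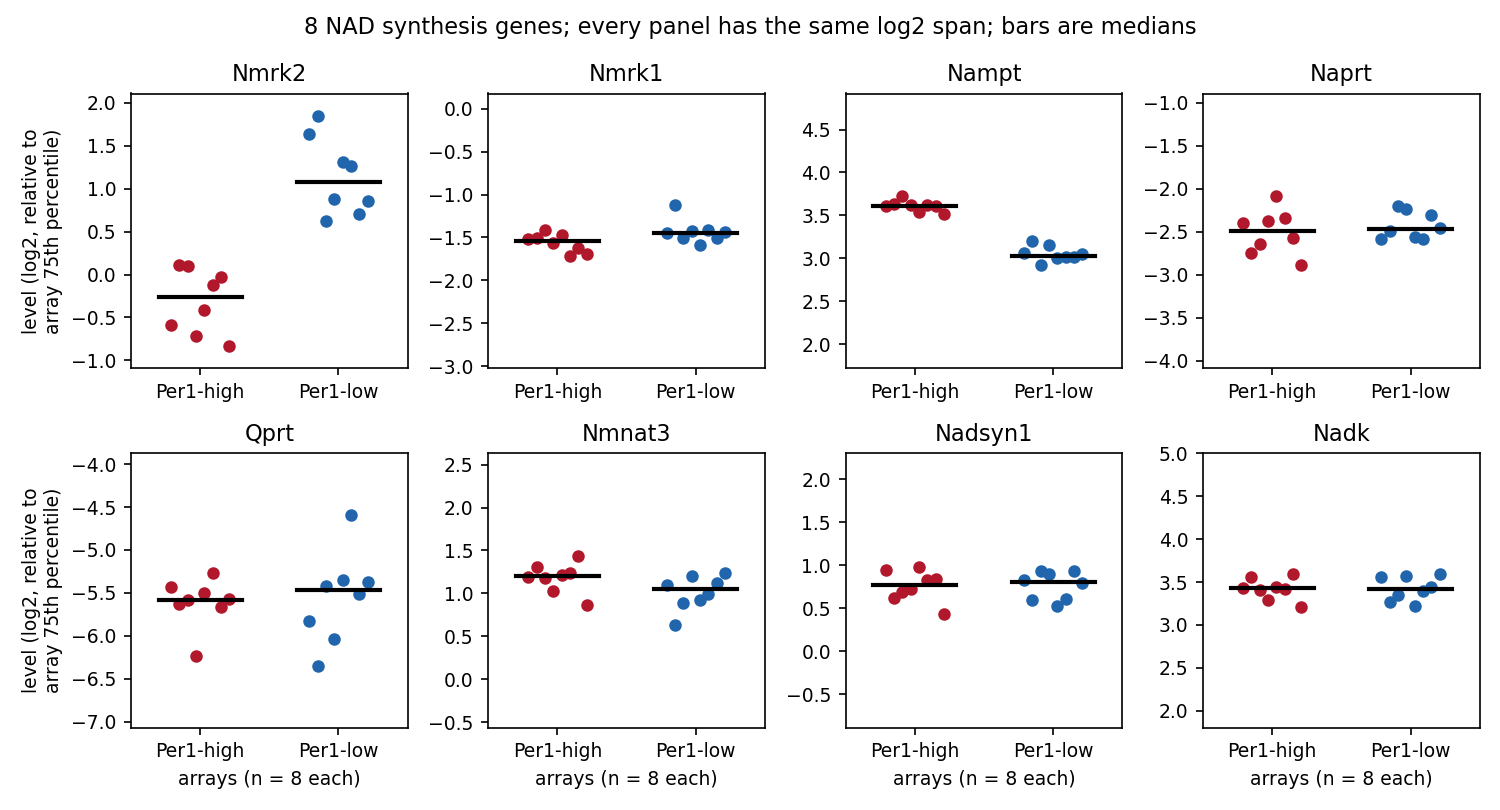
Levels (log2, with the array's 75th percentile taken off) of the 8 tested genes on the 8 Per1-high and 8 Per1-low arrays, each point an array and each bar a median, with the same span on every axis. Nmrk2 (medians -0.26 and 1.07) and Nampt (3.61 and 3.03) separate the sets, and the other 6 genes overlap.

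Array 4 was Per1-high and array 3 Per1-low under every label, on 1 slide each, so the signs of the next differences follow from the separation of the sets and only their sizes are added. Array 4 minus array 3 gave -1.60 for Nmrk2 in Dex, -1.11 in E2, -1.69 in Dex+E2 and -1.21 in Vehicle. The same pairs gave 0.46, 0.53, 0.46 and 0.69 for Nampt. Array 2 minus array 1 gave -0.01, -0.05, 0.09 and 0.21 for Nmrk2 and 0.09, 0.00, -0.01 and 0.14 for Nampt, so the other pair of each label, which shares both a slide and a Per1 set, lay close together. Across all genes 15.7% were lower on array 4 than on array 3 under all 4 labels and 9.73% higher. Lower by at least 1 log2 unit in all 4 pairs were 7 genes (0.0399%), Nmrk2 among them. Nmrk2 had been put forward for a difference between arrays of the 2 Per1 sets, so nothing is read from its place among these genes. Arrays 3 and 4 also lay below arrays 1 and 2 in Nmrk2 inside both Per1 sets. On Per1-high arrays the medians were -0.65 on arrays 3 and 4 and 0.04 on arrays 1 and 2, and on Per1-low arrays they were 0.78 and 1.48, without overlap either time. That held for 2.3% of all genes and for no other member, and its cause was not tested.

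**Figure D3:**
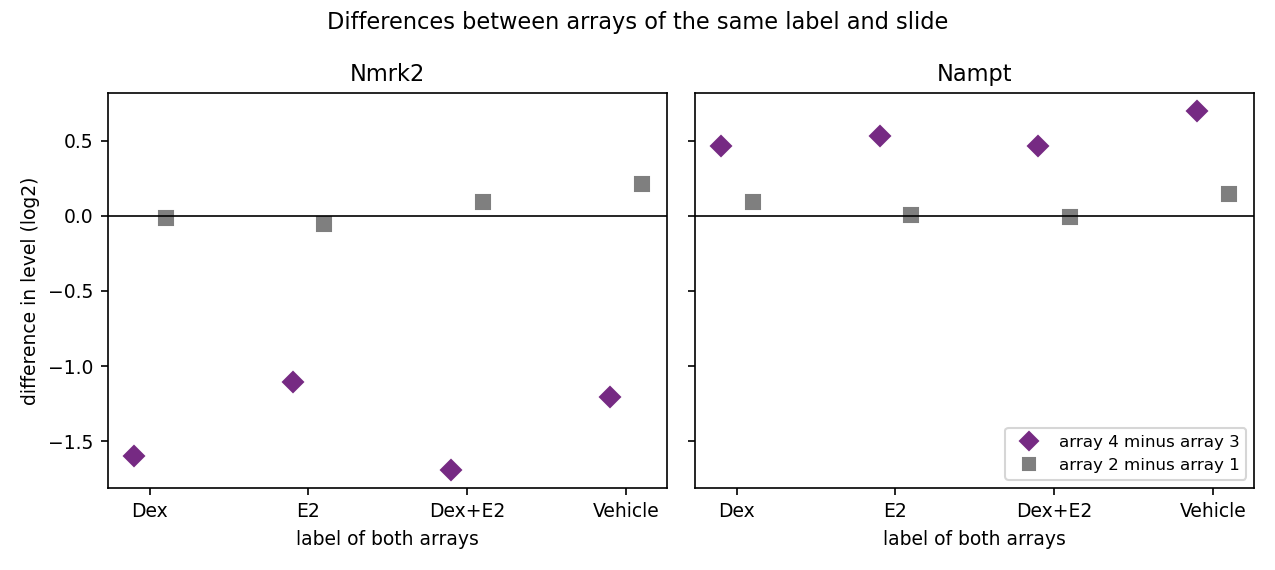
Difference in level (log2) between arrays of 1 label on 1 slide, as array 4 minus array 3 and array 2 minus array 1, for Nmrk2 and Nampt. In all 4 labels array 4 is below array 3 in Nmrk2 (-1.11 to -1.69) and above it in Nampt (0.46 to 0.69), while arrays 1 and 2 differ by at most 0.21.

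Each of the 4 slides held 2 arrays of each of 2 labels, and slides 2 to 4 each held arrays in doubt. Within slide 2, E2 minus Vehicle was 1.27 for Nmrk2, within slide 3 Dex+E2 minus Dex was -0.16, and within slide 4 Dex+E2 minus E2 was -0.13. With slide as a block, Nmrk2 differed by -0.90 between Dex and Vehicle but by -0.33 between Dex+E2 and Vehicle, and by 0.54 between E2 and Vehicle, and no member was called. No slide held both Dex+E2 and Vehicle, so the blocked difference of these 2 labels is indirect. It runs through Dex and E2 arrays, including arrays in doubt.

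The wider NAD pathway was described by a list of 39 further genes, of which 28 were tested and 0 were called in any comparison. Nt5e and Nnmt did not overlap between the Per1 sets, both higher on Per1-high arrays, where 2.01% of all genes were, and 26 overlapped. Nt5e encodes the cell-surface nucleotidase CD73, which can release nicotinamide riboside from its mononucleotide, and differed by 1.03 (2.04-fold). Nnmt, which methylates nicotinamide and takes it out of salvage, differed by 0.69 (1.61-fold). Over the 28 genes the median difference was 0.01 and 17 were positive, against -0.01 and 45.7% over all genes. Of the 28, Ido2, Slc22a13 and Slc5a8 were above background on 8, 10 and 12 of 16 arrays, so nothing is read from their differences.

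Nt5e stood at 1.50, 1.44, 0.52 and 1.30 on Dex arrays 1 to 4, and at 1.35, 1.52, 0.68 and 1.71 on Dex+E2 arrays 1 to 4, against 0.46, 0.43, 0.26 and 1.40 on Vehicle arrays 1 to 4. The arrays that were high in Nampt were high in Nt5e. The difference between Dex and Vehicle was 0.55 ± 0.33 for Nt5e and 0.42 ± 0.24 for Nnmt, and neither passed the test (limma adjusted p = 0.544 and 0.523). All 7 sirtuins, which consume NAD as deacylases, overlapped between the Per1 sets, with differences of -0.13 to 0.16. So did 5 tested ADP-ribose enzymes (-0.33 to 0.03), 2 kynurenine-route genes and 6 genes for integrin partners and regulators of Nmrk2.

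**Figure D4:**
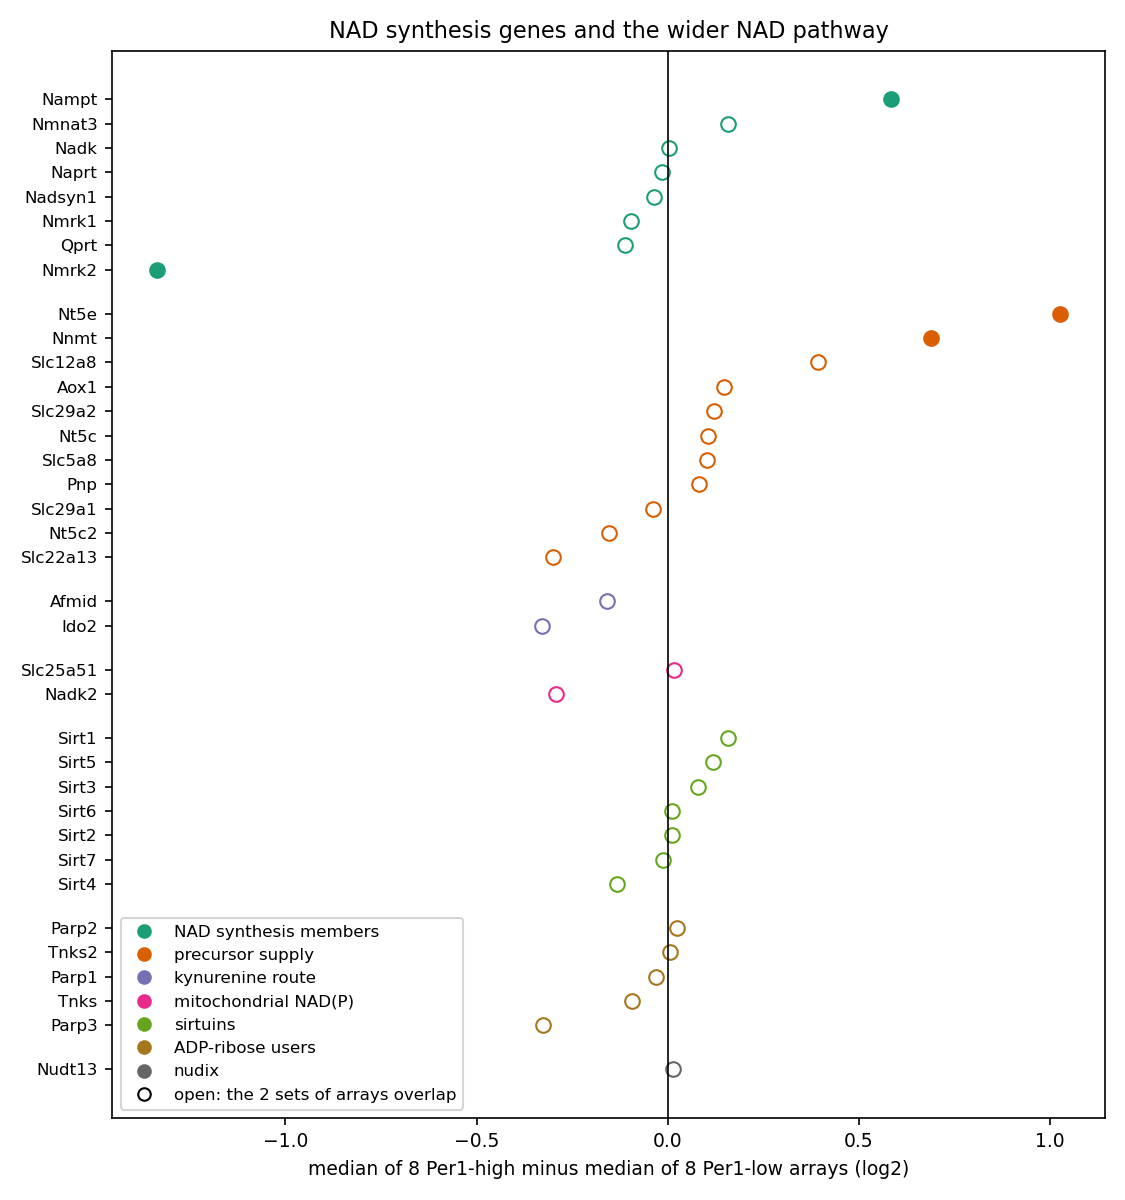
Median of 8 Per1-high minus median of 8 Per1-low arrays (log2) for the 8 tested members and 28 other NAD pathway genes, grouped by role, with filled points where the 2 sets do not overlap. Nampt (0.58), Nt5e (1.03) and Nnmt (0.69) lie to the right, Nmrk2 (-1.34) to the left, and the other points overlap.

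Among the 12824 other tested genes with a symbol, those whose levels were most like Nmrk2 over the 16 arrays were Fam78a (Pearson r = 0.986), Cacna1g (0.986), Rflna (0.984), Crb2 (0.982) and Bcar1 (0.982), and the most opposed were Cth (-0.969), Fkbp5 (-0.968), Smco2 (-0.966), Mt2 (-0.952) and Klf15 (-0.952). Against Nmrk2, r was -0.78 for Nampt, 0.64 for Nmrk1 and -0.86 for Per1. These coefficients describe 16 arrays that fall into 2 sets and share their experiments, so they carry no p.

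Cardiomyocyte markers were present throughout: 14 of 15 were above background on all 16 arrays, and their summed level was 9.44 to 9.69 on Per1-high and 9.33 to 9.71 on Per1-low arrays. That sum follows the most abundant markers. Myh7, the slow myosin heavy chain, did not overlap, with medians of 2.26 on Per1-high and 1.00 on Per1-low arrays. That was a difference of 1.26 (2.39-fold higher), where 2.01% of all genes lay higher without overlap. The other cardiomyocyte markers overlapped and went in both directions, from -0.38 (Nppa) to 0.46 (Myh6). Of 4 endothelial markers, 1 (Kdr) was above background on all arrays and 2, Pecam1 and Cdh5, on 0. The endothelial sum was 0.83 to 1.17 on Per1-high and 0.07 to 0.68 on Per1-low arrays and followed Kdr. Of 5 fibroblast markers 4 were above background on all arrays, with sums of 4.61 to 5.37 and 4.86 to 5.45. Of 4 immune markers 3 were above background on 0 arrays, as were all 3 adipocyte markers. In these cultures fewer cells of a type and less RNA per cell cannot be told apart, and the part of any marker in the Nmrk2 and Nampt differences was not tested.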

How the data were processed

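Cy3-labelled cRNA from total RNA of 16 cultures was hybridised to one-colour Agilent arrays, per the labels' protocols, and the submitters' processing notes name Agilent Feature Extraction 12. The deposited processed signal is an intensity, linear and already background-subtracted per the file headers. The authors also deposited log2 values of the same arrays. How these were normalized the sources used here do not say, and they served as an alternative.

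Control spots and outlier-flagged spots were left out, replicate spots averaged, and log2 levels taken relative to the 75th percentile of each array. Probes had to be well above background on every array of some label, which left 24453 of 41174 probes and 17771 genes. Of these, 242 lacked a value on an array, so 17529 were tested. Accessions matched the RefSeq table (GRCm38.p6) for 28223 probes and not for 12951. Fits used limma 3.58.1 (lmFit, eBayes with trend) in R 4.3.3 on 16 arrays with 4 labels, a call being a Benjamini-Hochberg adjusted p under 0.05. The fit was checked on simulated data drawn without the variation between the Per1 sets. That check therefore does not show what the fit could detect on these arrays.

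Genes were named as members, as pathway members separating the Per1 sets, or as the 5 most like and most unlike Nmrk2. Members and lists were chosen with earlier results of these data known. The planned normexp alternative (offset 50) used median spot signals. The number of arrays limits precision.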

Additional observations from a re-analysis of the deposited data

Results flagged for a closer look

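In 36 groups of 4 arrays, 1 gene under 1 label each, 3 arrays lay far from the others by Dixon's test, which by chance marks about 1 in 20 groups. Nampt stood at 3.54 on E2 4, against 3.01 on each of the other 3 E2 arrays, and this is an array whose Per1 went against the label. Nmnat2 stood at -3.41 on Dex 3, the one array on which it was well above background, against -8.53 to -8.10 on the other Dex arrays, so it has no measured level on those. Its second probe was above background on 0 arrays, with a highest level of -6.67. Nadsyn1 stood at 0.44 on Dex+E2 4, against 0.79 to 0.84 on the other Dex+E2 arrays.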

How the results depend on the processing

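No member was called in any of the 6 comparisons under slide block, replicate block, quantile, normexp and quantile, deposited table, no filter, no trend and mean of probes, nor when each array was left out (0 to 0). The calls appeared within slide 1 for Dex against Vehicle (1 member) and without the 4 arrays whose Per1 went against the label: 2 members for Dex and 2 for Dex+E2 against Vehicle, and 1 (Nampt) for Dex+E2 against E2, where 2.44%, 2.6% and 1.93% of all genes were called (0.254% within slide 1). The arrays to leave out were chosen after seeing the data, and on all arrays numbered 3 and 4 Per1 followed the number and not the label. The member called within slide 1 was Nmrk2, which was put forward from that same contrast, so nothing is read from that call. Signs turned for Nmrk2 in E2 minus Vehicle (0.54 with a slide block, 1.27 within slide 2) and Dex+E2 minus Dex (0.58 with a slide block), and for Nampt in Dex+E2 minus Dex within slide 3 (0.22) and in the interaction over the mean of probes (0.0212), and the cause was not tested. Leaving out each array gave -0.65 to 0.21 and -0.19 to 0.0797 for E2 minus Vehicle, -0.42 to 0.14 and -0.21 to 0.0481 for Dex+E2 minus Dex, and -0.34 to 0.53 and -0.16 to 0.11 for the interaction, for Nmrk2 and then Nampt. Nmrk2 in Dex+E2 minus Vehicle was -1.40 without Vehicle 4, -0.59 without Vehicle 2 and -0.33 with a slide block, though no slide held both labels. The Per1-high minus Per1-low differences of Nmrk2 and Nampt kept their direction and stayed without overlap in the settings run on all 16 arrays. Leaving out each array gave -1.52 to -1.15 for Nmrk2 and 0.56 to 0.60 for Nampt. Normexp and quantile gave -0.98 and 0.54, and the mean of probes 0.50 for Nampt. Same-numbered arrays correlated at -0.16 to 0.46, with 13 of 24 pairs over 0.1. Of 16 arrays, 9 correlated best with their own number, a hint of shared numbers from the data. Number 3 was Per1-low and number 4 Per1-high under every label. For these numbers the hint cannot be told apart from the shared Per1 set. The labels do not say that numbers pair the arrays and not every pair passed 0.1, so the main fit has no block. The replicate block called 0 members in all 6 comparisons but changed the error. The SE of the Nmrk2 difference between Dex and Vehicle was 0.32 with it, against 0.53 in the main fit. The unadjusted limma p of that comparison was 0.032 for Nmrk2 and 0.015 for Nampt with the block, against 0.159 and 0.080 in the main fit. Because Per1 followed the number on arrays 3 and 4, the block also took up that difference. The SE of Per1 itself was 0.54 with the block, against 0.93 without, so nothing is read from the smaller p. Adjusted limma p with the block was 0.314 and 0.306.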
